A study of Mus musculus with 6 samples.

Results

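The immunoglobulin constant genes are described here in mouse dorsal root ganglion (DRG), the cluster of sensory neuron cell bodies beside the spinal cord. Members were taken by gene symbol from the deposited table of read counts. They were the 8 heavy-chain constant genes (*Ighm*, *Ighd*, *Ighg3*, *Ighg1*, *Ighg2b*, *Ighg2c*, *Ighe*, and *Igha*), the kappa light-chain constant gene *Igkc*, and *Jchain*, so that 10 of 48440 symbols were members. In the study, male WT mice received a microinjection of an adeno-associated virus of serotype 5 into the L3/4 DRGs on 1 side. The 3 control libraries came from DRGs given AAV5-*Gfp*, which expresses green fluorescent protein. The other 3 came from DRGs given AAV5-*V1* and AAV5-*V2* together (AAV5-*V1+V2*), which express the V1 and V2 transcript variants of the long noncoding RNA *NIS-lncRNA*. The comparison asked which genes this overexpression changed. The text deposited with the data places tissue collection at 5 weeks after microinjection and the comparison at 4 weeks. The labels name no strain, and the paper speaks of CD1 mice for microinjection of these viruses into the DRG. The promoter in the viruses and any pooling of animals are not given in the sources used here. The groups differed in virus preparation as well as in transgene, which cannot be told apart. Nothing in the labels says that the replicates came from separate animals, so p-values measure the spread between these libraries, which may be technical.

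An antibody is built from paired heavy and light chains, each with a variable part that binds antigen and a constant part encoded by the genes described here. Naive B cells make IgM and IgD from *Ighm* and *Ighd*. After activation, class switching joins the same variable part to a downstream constant gene and so gives IgG, IgE, or IgA. Plasma cells, the secreting end stage of the B cell lineage, hold very large amounts of immunoglobulin mRNA. In bulk tissue, fewer cells of a type and less RNA per cell cannot be told apart.

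In GENCODE M21 (GRCm38), the 8 heavy-chain constant genes lie on the minus strand of chromosome 12, in the order *Ighm* (chr12:113418558-113422730), *Ighd*, *Ighg3*, *Ighg1*, *Ighg2b*, *Ighg2c*, *Ighe*, and *Igha* (chr12:113254830-113260236). *Igkc* (chr6:70726435-70726966, plus strand) and *Jchain* (chr5:88519809-88527891, minus strand) are elsewhere. Isotype levels can be compared only where reads can be told apart, and the 4 gamma genes are close relatives of each other. Their hinge exons, which encode the flexible link between the antigen-binding arms and the tail of IgG, are shown because they differ between the subclasses in length and in sequence. Each is exon 2 of the shorter annotated transcript, written 5′ to 3′ along the gene, with capitals for runs of 8 or more bases that another gamma hinge exon shares.
*Ighg3* (chr12:113360529-113360576, minus strand): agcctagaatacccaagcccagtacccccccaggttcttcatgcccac
*Ighg1* (chr12:113329844-113329882, minus strand): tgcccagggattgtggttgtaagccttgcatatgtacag
*Ighg2b* (chr12:113307261-113307326, minus strand): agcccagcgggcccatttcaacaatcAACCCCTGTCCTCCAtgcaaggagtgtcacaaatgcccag
*Ighg2c* (chr12:113288263-113288325, minus strand): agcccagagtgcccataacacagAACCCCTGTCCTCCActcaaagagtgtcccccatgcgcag

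The hinges of *Ighg3* and *Ighg1* held no such run, whereas 22.7% of the *Ighg2b* hinge and 23.8% of the *Ighg2c* hinge lay in 1. Over 1109 aligned bases of their shorter transcripts, *Ighg2b* and *Ighg2c* were 86.8% identical, and the other pairs of gamma genes were 75.8% to 78.4% identical. The longest stretch shared by any pair was 78 bases of exon 3 of *Ighg2b* and *Ighg2c*, in capitals below with 15 bases to each side.
*Ighg2b* (chr12:113306854-113306961, minus strand): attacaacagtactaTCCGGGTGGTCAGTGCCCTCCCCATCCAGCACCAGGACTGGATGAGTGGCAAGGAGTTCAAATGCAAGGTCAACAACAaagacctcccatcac
*Ighg2c* (chr12:113287854-113287961, minus strand): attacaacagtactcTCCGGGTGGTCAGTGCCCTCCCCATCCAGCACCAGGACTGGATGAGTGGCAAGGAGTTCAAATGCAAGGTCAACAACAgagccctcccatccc

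No 100-base window of a member's exons occurred in the exons of another member or of any other gene of GENCODE M21. At 50 bases, 5.49% of the windows of *Ighg2c*, 4.15% of *Ighg2b*, 1.58% of *Ighg3*, and 0.393% of *Ighg1* were also in another gamma gene. The other 6 members shared 0 such windows. How the counting treated reads that fit several genes is not given in the sources used here, so that reads from the shared stretches of *Ighg2b* and *Ighg2c* may have been split between them or left out. *Ighg2c* and *Ighg2a* are allelic forms in different mouse strains, and the allele of these mice was not tested.

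Libraries held between 32025612 and 34764282 counts. With AAV5-*Gfp*, members took 0.00490%, 0.00212%, and 0.00201% of these. With AAV5-*V1+V2*, they took 0.204%, 0.140%, and 0.133%. Values are given in the order of replicates 1, 2, and 3 throughout. Replicate 1 was the highest in both groups, and all AAV5-*V1+V2* libraries were above the controls. The markers of the tissue were present throughout, with 8 DRG neuron genes summing to between 2214 and 3912 CPM in the 6 libraries, where CPM are counts scaled to a common library size after trimmed-mean (TMM) normalization.

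Of the 10 members, 8 were higher in AAV5-*V1+V2* DRGs and 0 were lower, at a threshold of 0.05 on the adjusted p (quasi-likelihood test of edgeR, Benjamini-Hochberg adjustment over 18593 genes). The background was 10.1% of all genes tested called higher and 5.27% called lower. *Ighg1* was tested and missed the threshold, and *Ighe* did not pass the filter on low counts. At an unadjusted p under 0.05, 9 members were higher and 0 lower, DESeq2 called 8 higher and 0 lower (12.9% and 8.64% of all genes), and limma-voom called 9 higher and 0 lower (7.64% and 4.53%). In all 9 members tested, the lowest AAV5-*V1+V2* library lay above the highest AAV5-*Gfp* library, a pattern found in 23.4% of all genes tested. The median log2 fold change was 6.41 over these 9 members and -0.000298 over all genes tested, but a low gene could pass the filter through the group in which it was high.

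**Figure D1:**
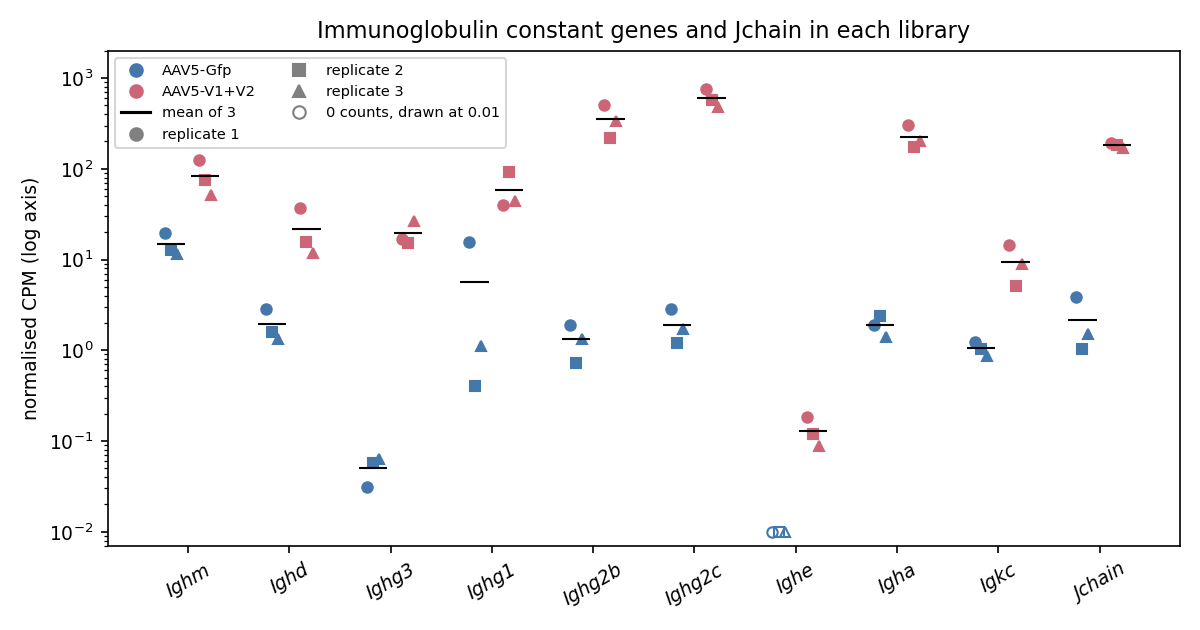
Normalized CPM (log axis) of the 10 members in each library, with AAV5-*Gfp* in blue, AAV5-*V1+V2* in red, a symbol for each replicate, and a line at the mean of 3 libraries. Open symbols stand for 0 counts and are drawn at 0.01. The groups do not overlap in any member, and AAV5-*Gfp* replicate 1 sits far above the other 2 controls in *Ighg1*.

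Among the heavy-chain genes called, the unswitched *Ighm* and *Ighd* had the smallest log2 fold changes. *Ighm*, the constant gene of IgM and of the first B cell receptor, had 635, 444, and 363 counts with AAV5-*Gfp* and 4128, 2490, and 1763 counts with AAV5-*V1+V2*. The lowest AAV5-*V1+V2* library was well above the highest control. The level rose from 14.7 ± 4.34 to 83.9 ± 37.9 CPM (SD, n = 3 each), a log2 fold change of 2.51 (SE 0.35, adjusted p = 0.0144 by edgeR's quasi-likelihood test).

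*Ighd*, which encodes the IgD constant region made beside IgM on naive B cells, had 92, 55, and 42 counts with AAV5-*Gfp* and 1213, 523, and 408 with AAV5-*V1+V2*. Replicate 1 was the highest in either group, as it was for *Ighm*, and the groups did not overlap. The log2 fold change was 3.48 (SE 0.50), with an adjusted p of 0.0144 in the same test. There were 6.90, 8.07, and 8.64 *Ighm* counts per *Ighd* count with AAV5-*Gfp* and 3.40, 4.76, and 4.32 with AAV5-*V1+V2*. The ratio was lower in every AAV5-*V1+V2* library, by 0.92 on the log2 scale. By exact permutation (two-sided) p was 0.1, and 3 against 3 libraries can give no smaller value.

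The genes of the IgG subclasses other than *Ighg1* had the largest differences. *Ighg2c*, an IgG subclass associated with interferon-gamma and antiviral responses, had 91, 42, and 53 counts with AAV5-*Gfp* and 24620, 19225, and 16558 with AAV5-*V1+V2*. It held 6.32% to 9.12% of heavy-chain counts in the controls and was the most counted member in each AAV5-*V1+V2* library. The level rose from 1.91 ± 0.824 to 603 ± 135 CPM (SD, n = 3 each), 316-fold in the fit (log2 fold change 8.31, SE 0.33, adjusted p = 0.000303 by edgeR's quasi-likelihood test).

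*Ighg2b*, the constant gene of another complement-fixing IgG subclass, had 61, 25, and 42 counts with AAV5-*Gfp* and 16799, 7332, and 11490 with AAV5-*V1+V2*. Replicate 2 was the lowest library in both groups. The log2 fold change was 8.08 (SE 0.46, adjusted p = 0.00118 by edgeR's quasi-likelihood test). There were 0.670, 0.595, and 0.792 *Ighg2b* counts per *Ighg2c* count with AAV5-*Gfp* and 0.682, 0.381, and 0.694 with AAV5-*V1+V2*. These ranges overlapped, with AAV5-*V1+V2* replicate 2 below the rest.

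*Ighg3*, the IgG subclass often made against carbohydrate antigens, was nearly silent in the controls, with 1, 2, and 2 counts against 560, 501, and 905 with AAV5-*V1+V2*. Its highest library was AAV5-*V1+V2* replicate 3, unlike the genes above. With 5 control counts in all, the ratio of summed counts per library size was 384 (exact 95% interval 164 to 1184, counting error only), and the adjusted p was 0.000319 in edgeR's quasi-likelihood test. A fitted log2 fold change at so low a control level depends on the prior count of the fit.

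*Ighg1*, the IgG subclass linked to interleukin 4, was tested and not called with all 6 libraries, but was called when AAV5-*Gfp* replicate 1 was left out. It had 499, 14, and 35 counts with AAV5-*Gfp*, so that replicate 1 alone held most control counts. With AAV5-*V1+V2* it had 1300, 3041, and 1524 counts, highest in replicate 2. The log2 fold change was 3.37 (SE 1.03, adjusted p = 0.0648 by edgeR's quasi-likelihood test), which missed the threshold. Without AAV5-*Gfp* replicate 1 it was 6.28 with an adjusted p of 0.0268 in the same test. *Ighg1* was also called with limma-voom (4.83, adjusted p = 0.0342) and without a filter on low counts (3.37, adjusted p = 0.0345), and DESeq2 gave an adjusted p of 0.0591.

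*Igha*, which encodes the IgA constant region of mucosal antibody, had 61, 83, and 44 counts with AAV5-*Gfp* and 9914, 5816, and 6916 with AAV5-*V1+V2*. Its highest control was AAV5-*Gfp* replicate 2, and the groups did not overlap. The level rose from 1.90 ± 0.493 to 226 ± 66.7 CPM (SD, n = 3 each), a log2 fold change of 6.88 (SE 0.29, adjusted p = 0.000303 by edgeR's quasi-likelihood test). *Ighe*, the constant gene of IgE, had 0 counts in each AAV5-*Gfp* library and 6, 4, and 3 with AAV5-*V1+V2*. Its mean level with AAV5-*V1+V2* was 1.41 times a floor of 3 counts per control library. That value leaves out counting error in the AAV5-*V1+V2* libraries, of which replicate 3 only reached 3 counts. It is therefore no firm lower bound.

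*Jchain*, the joining chain that links IgM and IgA into polymers and is made by antibody-secreting cells, had 125, 36, and 47 counts with AAV5-*Gfp* and 6375, 6017, and 5792 with AAV5-*V1+V2*. The 3 AAV5-*V1+V2* libraries were close to each other, and AAV5-*Gfp* replicate 1 was the highest control. The log2 fold change was 6.41 (SE 0.39, adjusted p = 0.00125 by edgeR's quasi-likelihood test). Relative to the summed heavy-chain counts, *Jchain* stood at 8.68%, 5.41%, and 8.09% with AAV5-*Gfp* and at 10.9%, 15.5%, and 14.6% with AAV5-*V1+V2*. The ratio was higher in each AAV5-*V1+V2* library than in any control, by 0.89 on the log2 scale between the means (exact two-sided permutation p = 0.1, the smallest possible).

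*Igkc*, the constant region of the kappa light chain that most mouse antibodies carry, had a smaller difference than *Ighg2b*, *Ighg2c*, *Ighg3*, *Igha*, and *Jchain*. It had 40, 36, and 27 counts with AAV5-*Gfp* and 475, 171, and 306 with AAV5-*V1+V2*, with no overlap and with replicate 1 highest in both groups. The log2 fold change was 3.17 (SE 0.39, adjusted p = 0.0139 by edgeR's quasi-likelihood test). *Igkc* equalled 2.78%, 5.41%, and 4.65% of heavy-chain counts with AAV5-*Gfp* and only 0.811%, 0.439%, and 0.773% with AAV5-*V1+V2*. This ratio was lower in every AAV5-*V1+V2* library, by 2.68 on the log2 scale, with the smallest possible exact permutation p of 0.1.

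Kappa variable genes, many of them so alike that reads may be shared among them, did not share the low counts of *Igkc*. The 160 *Igkv* symbols summed to 236, 97, and 52 counts with AAV5-*Gfp* and 13989, 10430, and 10472 with AAV5-*V1+V2*. Per *Igkc* count this was 5.90, 2.69, and 1.93 counts in the controls and 29.5, 61.0, and 34.2 with AAV5-*V1+V2*. A kappa mRNA holds a variable and a constant part together, so that the counts on the *Igkc* symbol did not follow those on the variable parts. The annotated span of the lincRNA Gm30211 (chr6:70719074-70740554) contains *Igkc* on the same strand. The overlap was of spans and not of exons at the longer window length above. At that length, 0 of 433 windows of *Igkc* occurred in the exons of any other gene. The counts of Gm30211 were not analysed here. The part of that overlap in the *Igkc* level was not tested. The 185 *Ighv* symbols held 0.144, 0.0887, and 0.0792 counts per heavy-chain constant count in the controls and 0.212, 0.217, and 0.195 with AAV5-*V1+V2*.

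**Figure D2:**
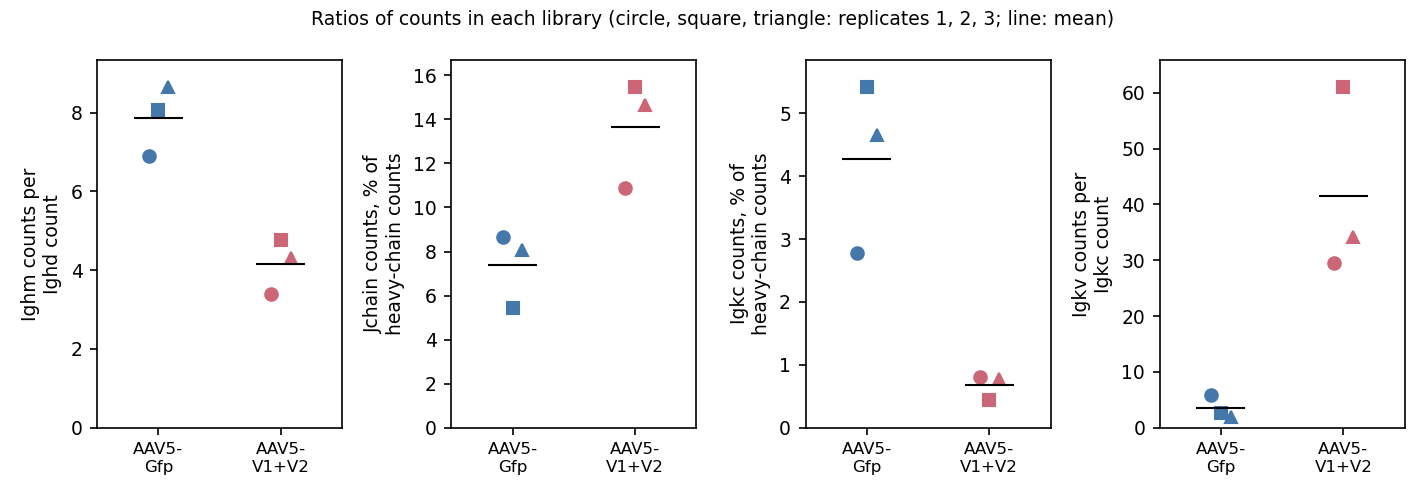
Ratios between members in each library, with AAV5-*Gfp* in blue and AAV5-*V1+V2* in red. From left, the vertical axes are *Ighm* counts per *Ighd* count, *Jchain* and *Igkc* counts as a percentage of summed heavy-chain counts, and summed *Igkv* counts per *Igkc* count. The groups are separate in each panel, lower with AAV5-*V1+V2* for *Ighm* per *Ighd* and for *Igkc*, and higher for *Jchain* and for *Igkv* per *Igkc*.

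The differences above were tested without each library in turn. Without AAV5-*Gfp* replicate 2, *Ighg3*, *Ighg2b*, *Ighg2c*, *Igha*, and *Jchain* were still called among 12 genes of the whole table (0.0634% of those tested), and leaving out AAV5-*Gfp* replicate 3, the same 5 members were called among 15 (0.0792%). *Ighm*, *Ighd*, and *Igkc* then missed the threshold, at adjusted p values of 0.0815 and 0.0875 in these fits (edgeR's quasi-likelihood test). Their log2 fold changes moved little, to 2.42 and 2.37 for *Ighm*, 3.35 and 3.28 for *Ighd*, and 3.17 and 3.06 for *Igkc*. Without AAV5-*Gfp* replicate 1, the log2 fold change of *Jchain* was 7.16.

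**Figure D3:**
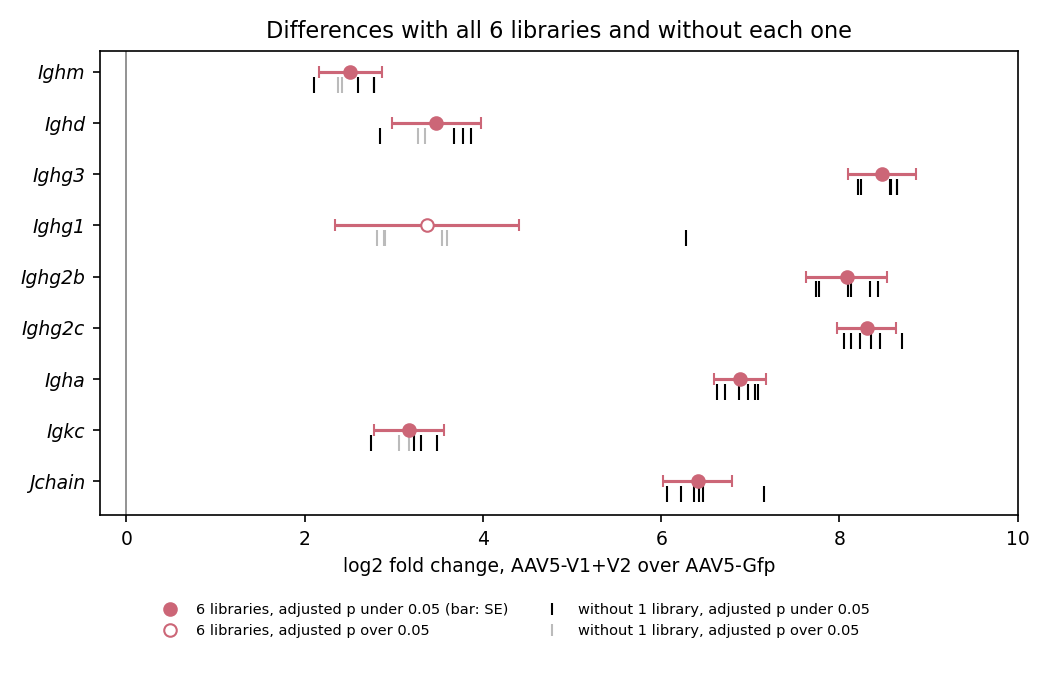
Log2 fold change of each tested member with all 6 libraries (circle, bar showing the SE) and without each library in turn (ticks). Filled circles and black ticks have an adjusted p under 0.05, and grey ticks do not. *Ighg1* at 3.37 is the only open circle and has a tick at 6.28, without AAV5-*Gfp* replicate 1, and grey ticks also occur in *Ighm*, *Ighd*, and *Igkc*.

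*Ighm* was the largest single heavy-chain gene in each control library and *Ighg2c* in each AAV5-*V1+V2* library. Summed heavy-chain constant counts were 1440, 665, and 581 with AAV5-*Gfp* and 58540, 38932, and 39567 with AAV5-*V1+V2*. Intervals on shares below cover counting error only, and the smaller control sums make the control shares less precise. *Ighm* held 44.1% (exact Clopper-Pearson 95% interval 41.5% to 46.7%), 66.8% (63.0% to 70.3%), and 62.5% (58.4% to 66.4%) of heavy-chain counts with AAV5-*Gfp*. With AAV5-*V1+V2* it held 7.05%, 6.40%, and 4.46%. The groups were far apart, and the lowest control was AAV5-*Gfp* replicate 1. The mean share was 57.8% ± 12.04 in the controls and 5.97% ± 1.35 with AAV5-*V1+V2* (SD, n = 3 each, exact two-sided permutation p = 0.1, which is the smallest possible and 0.109 after Benjamini-Hochberg adjustment over 12 compositional measures).

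*Ighg2c* held 6.32%, 6.32%, and 9.12% with AAV5-*Gfp* and 42.1%, 49.4%, and 41.8% with AAV5-*V1+V2*. *Ighg2b* held 4.24%, 3.76%, and 7.23% in the controls and 28.7%, 18.8%, and 29.0% with AAV5-*V1+V2*. Both were higher in every AAV5-*V1+V2* library, with the same exact p of 0.1. The 4 IgG genes summed to 45.3%, 12.5%, and 22.7% in the controls and 73.9%, 77.3%, and 77.0% with AAV5-*V1+V2*. With *Igha* and *Ighe*, the 6 switched isotypes made up 49.5%, 25.0%, and 30.3% of heavy-chain counts with AAV5-*Gfp* and 90.9%, 92.3%, and 94.5% with AAV5-*V1+V2*. AAV5-*Gfp* replicate 1 had the highest switched share of the controls, and its *Ighg1* share was 34.7%, against 2.11% and 6.02% in the other 2.

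*Igha* held 4.24%, 12.5%, and 7.57% with AAV5-*Gfp* and 16.9%, 14.9%, and 17.5% with AAV5-*V1+V2*. This order depended on the unswitched isotypes in the denominator. Among switched isotypes alone, *Igha* held 8.56%, 50%, and 25.0% in the controls and 18.6%, 16.2%, and 18.5% with AAV5-*V1+V2* (exact permutation p = 0.7), so that the groups overlapped. *Ighg2c* was still higher in each AAV5-*V1+V2* library on that scale, at 46.3%, 53.5%, and 44.3% against 12.8%, 25.3%, and 30.1% (exact permutation p = 0.1). *Ighg2b*, at 31.6%, 20.4%, and 30.7% against 8.56%, 15.1%, and 23.9%, overlapped between groups (exact permutation p = 0.2).

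The remaining heavy-chain genes were *Ighd*, *Ighg3*, *Ighg1*, and *Ighe*. *Ighd* held 7.30% ± 0.943 of heavy-chain counts in the controls and 1.48% ± 0.534 with AAV5-*V1+V2*, and *Ighg3* held 0.238% ± 0.148 and 1.51% ± 0.693 (SD, n = 3 each, exact permutation p = 0.1 for both). Among switched isotypes alone, the *Ighg3* share overlapped between groups (exact permutation p = 0.3). It was then 0.140%, 1.20%, and 1.14% in the controls and 1.05%, 1.39%, and 2.42% with AAV5-*V1+V2*. The *Ighg1* share did not separate the groups (exact permutation p = 0.7). It was 34.7%, 2.11%, and 6.02% in the controls and 2.22%, 7.81%, and 3.85% with AAV5-*V1+V2*. *Ighe* had 0 of 1440, 665, and 581 counts in the controls, which allows shares of up to 0.208%, 0.451%, and 0.516%, all above the 0.0102%, 0.0103%, and 0.00758% of AAV5-*V1+V2* replicates 1 to 3. A difference in the share of *Ighe* was therefore not detectable at this depth.

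**Figure D4:**
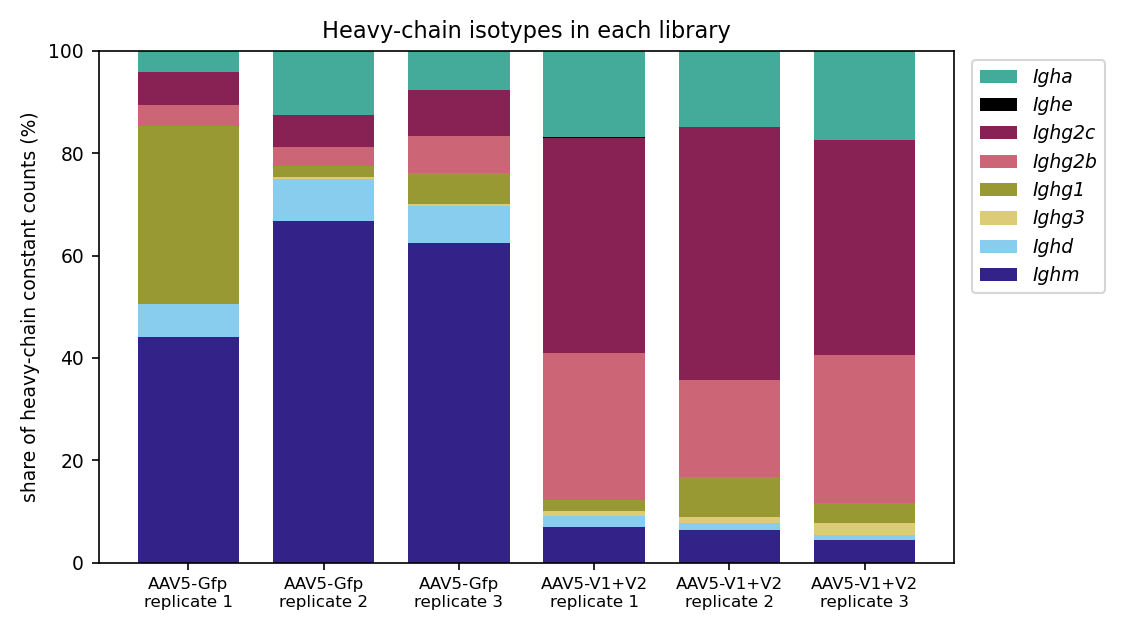
Share of each heavy-chain constant gene in the summed heavy-chain counts (percent) of each library, as stacked bars. The 6 switched isotypes together fill 25.0% to 49.5% of the control bars and 90.9% to 94.5% of the AAV5-*V1+V2* bars, where *Ighg2c* and *Ighg2b* are the largest parts. *Ighg1* is wide in AAV5-*Gfp* replicate 1 only.

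Levels of different genes were compared per kilobase of merged exons. With AAV5-*V1+V2*, *Ighg2c* was first at 455 ± 101 CPM per kilobase (SD, n = 3), followed by *Ighg2b* at 133 ± 54.6, *Igha* at 84.7 ± 25.0, *Jchain* at 72.0 ± 4.95, and *Ighm* at 44.5 ± 20.1. Then came *Ighg1*, *Igkc*, *Ighd*, and *Ighg3*, between 22.5 and 7.76, and *Ighe* at 0.0820. Among neighbours in this order, the ranges over libraries were apart for *Ighg2c* and *Ighg2b*, *Jchain* and *Ighm*, and *Ighg3* and *Ighe*, and the others overlapped. Within each of the 3 libraries, *Ighg2b* was also above *Igha*, *Ighm* above *Ighg1*, and *Igkc* above *Ighd*. Per kilobase of the shorter transcript, the ranges of *Ighg2c* (mean 543) and *Ighg2b* (mean 319) overlapped too, although *Ighg2c* was the higher within each library, and those of *Igha* and *Jchain* were apart. On that scale *Ighg2b* stayed above *Igha* in each of the 3 libraries, but *Ighm* was above *Ighg1* in only 1. *Igkc* (mean 17.9) then came after *Ighd* (mean 26.8) and *Ighg3* (mean 18.0). In the controls, *Ighm* and *Ighg1* overlapped per kilobase of the shorter transcript.

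With AAV5-*Gfp*, *Ighm* was first at 7.80 ± 2.30 CPM per kilobase (SD, n = 3), above every value of the next gene, *Ighg1*. From *Ighg1* at 2.18 to *Ighg2b* at 0.493 each gene overlapped with the next, and *Ighg3* at 0.0203 was below all of these. *Ighg2c*, first with AAV5-*V1+V2*, ranked 4 here, at 1.44.

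Other genes of the B cell lineage were counted by list. Of 12 B cell identity genes, 11 were called higher and 0 lower, with a median log2 fold change of 2.88. *Ms4a1*, which encodes the surface antigen CD20, had a log2 fold change of 5.49 (SE 0.54), *Cd79b*, the signalling chain of the B cell receptor, 3.24 (SE 0.36), and *Cr2*, a complement receptor, 2.17 (SE 0.25). The gene not called was *Ebf1*, with counts between 14938 and 18992 in all 6 libraries. The lambda light-chain constant gene *Iglc2* rose from 21, 8, and 9 counts to 353, 213, and 266 (log2 fold change 4.40, SE 0.38, adjusted p = 0.00598 by edgeR's quasi-likelihood test), so that it equalled 0.525, 0.222, and 0.333 of the *Igkc* counts in the controls and 0.743, 1.25, and 0.869 with AAV5-*V1+V2*. Of the 8 light-chain constant and surrogate genes, *Vpreb3* was the only other 1 tested, at 2.07 (SE 0.34), and it was also called higher.

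Of 15 genes of plasma cell differentiation and secretion, 12 were called higher and 0 lower (median 1.20). *Irf4*, a factor needed for switching and plasma cells, changed by 2.53 (SE 0.23) on the log2 scale, *Pou2af1*, an octamer coactivator of B cells, by 3.89 (SE 0.35), and *Eaf2* by 1.76 (SE 0.18). Of 12 germinal center and switching genes, 11 were tested and 8 called higher (median 3.03). *Cxcr5*, the follicle-homing receptor, had a log2 fold change of 3.39 (SE 0.39) and *Gcsam* of 2.19 (SE 0.29).

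Of 12 cytokines of switching and plasma cell survival, 7 were tested, 5 were called higher, and 1 lower (median 0.91). *Cxcl13*, the B cell attractant, had 25, 2, and 1 counts with AAV5-*Gfp* and 568, 555, and 324 with AAV5-*V1+V2*. *Il21*, a helper T cell cytokine, had a log2 fold change of 3.04 (SE 0.47) and *Tgfb1*, a switch factor for IgA, of 1.54 (SE 0.33). The gene called lower was *Il4* (log2 fold change -0.44, SE 0.12, adjusted p = 0.0469 by edgeR's quasi-likelihood test), close to the threshold. It was not called with total counts only (4.16% of all genes lower) or without AAV5-*V1+V2* replicate 2 (0.794%). Nor was it called without any 1 AAV5-*Gfp* library (0% to 0.311%). *Ifng*, the cytokine linked to *Ighg2c*, had 0, 0, and 3 counts in the controls and 25, 9, and 15 with AAV5-*V1+V2* and did not pass the filter on low counts. Of 10 receptors and transporters of immunoglobulin tested, 7 were called higher and 0 lower (median 1.36), among them the IgM receptor *Fcmr* (3.47, SE 0.51), the signalling chain *Fcer1g* (2.12, SE 0.39), and the inhibitory IgG receptor *Fcgr2b* (1.84, SE 0.38). The epithelial carrier of IgA and IgM, *Pigr*, had 0 counts in the controls and 6, 3, and 0 with AAV5-*V1+V2*. *Ebf1*, *Il4*, *Ifng*, and *Pigr* were chosen for naming after their values were seen.

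Markers of other cells were counted by list in the same way. T cell genes summed to between 4.01 and 10.3 CPM with AAV5-*Gfp* and between 37.4 and 81.9 CPM with AAV5-*V1+V2*, and 7 of 8 were called higher and none was at 0 in any library, with *Cd5* (3.19, SE 0.32), *Cd4* (3.33, SE 0.42), and *Cd3e* (3.88, SE 0.54) having the smallest adjusted p. Lymph node stroma genes, none at 0 in any library, summed to between 3.95 and 5.24 CPM and between 8.17 and 23.5 CPM, and 2 of 4 tested were called higher, *Ccl19* (3.62, SE 0.88) and *Glycam1* (1.95, SE 0.26), but not *Ccl21a* (0.25, SE 0.17). Of 7 erythrocyte genes, edgeR's quasi-likelihood test called 0 (2 at an unadjusted p under 0.05), limma-voom 0, and DESeq2 1, with a median of 0.25. Among them were *Slc4a1* (0.49, SE 0.16) and *Hba-a2* (0.61, SE 0.24). DRG neuron genes summed to between 3772 and 3912 CPM with AAV5-*Gfp* and between 2214 and 3289 CPM with AAV5-*V1+V2*. Of 8 (median -0.41), edgeR's quasi-likelihood test called only *Pvalb* lower, at -0.51 (SE 0.11), whereas DESeq2 called 4 lower and limma-voom 1. The edgeR fits that leave out 1 library called 4 lower without AAV5-*V1+V2* replicate 1 (5.79% of all genes) and 3 without replicate 3 (7.63%). They called 0 lower without AAV5-*V1+V2* replicate 2 or without any 1 AAV5-*Gfp* library, where 0% to 0.794% of all genes were. Not called by edgeR with all 6 libraries were *Scn10a* (-0.59, SE 0.17) and *Isl1* (-0.51, SE 0.18). The lowest neuron sum was that of AAV5-*V1+V2* replicate 1, in which members took their highest share of counts. Of 8 DRG glia genes, edgeR's quasi-likelihood test called 0 (0 higher and 2 lower at an unadjusted p under 0.05), limma-voom 0, and DESeq2 1, with a median of -0.02 and with *S100b* (-0.38, SE 0.11) and *Kcnj10* (-0.29, SE 0.11) named by the same rule. The part of these cells in the immunoglobulin levels was not tested.

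Without AAV5-*Gfp* replicate 2 or without replicate 3, 0 genes of these lists were called in either direction (0% lower in the whole table) by edgeR's quasi-likelihood test. At an unadjusted p under 0.05, however, 58 and 60 were higher and 5 and 7 lower. The 5 members named above were called in both of these fits.

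Over the 6 libraries, the genes whose log2 CPM was most like that of *Ighm* were *P2ry10* (Pearson r = 0.999), *Icosl* (0.999), and *Psmb8* (0.999), among 14553 genes compared. For *Igkc* they were *Aurka* (0.998), *Rad1* (0.998), and *Surf6* (0.997). These are descriptions over 6 libraries that share the group difference. *P2ry10* rose by 4.11 (SE 0.57) on the log2 scale, *Icosl* by 1.59 (SE 0.26), and *Psmb8* by 2.17 (SE 0.28), whereas *Aurka*, a mitotic kinase, rose by 0.58 (SE 0.14). *Rad1* (0.24, SE 0.10) and *Surf6* (0.26, SE 0.08) did not pass the threshold.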

How the data were processed

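RNA was sequenced with stranded total RNA libraries from 6 samples, 3 AAV5-*Gfp* and 3 AAV5-*V1+V2*. The authors deposited raw counts of reads per gene symbol, with no normalization. The aligner, the counting program, the annotation, the use of strand, and the handling of reads that fit several genes are not given in the sources used here. The submitters' processing notes name the GRCm38 (mm10) build. Gene models and sequences were taken from GENCODE M21, which holds 46283 of the 48440 symbols, and all 10 members were matched by symbol. Table columns were matched to samples by name, and 0 value columns were left over.

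After filterByExpr and TMM normalization, 18593 genes were tested by glmQLFit and glmQLFTest of edgeR 4.0.16 (R 4.3.3) with the group as the only term. The threshold for a call was 0.05 on the p adjusted by Benjamini-Hochberg over these genes. The SE was the absolute coefficient over the square root of F. The fit was tested on simulated counts with known changes. Isotype shares and ratios (0.5 added to each count on the log2 scale) were compared with exact two-sided permutation tests in Python 3.11.15 with scipy 1.17.1. Intervals and the floor of 3 counts per library cover counting error only, since reads without molecular identifiers are not independent molecules. Levels of different genes were divided by the length of merged exons.

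All 10 members are named. Of each gene list, the 3 tested genes with the smallest adjusted p are named, or every gene of a list of which at most 3 were tested, and of the genes most like *Ighm* or *Igkc* the 3 with the highest Pearson correlation (mean of at least 1 log2 CPM, no immunoglobulin genes). Some genes that this rule names are not reported here. Members and lists were chosen with earlier results of these data known. Alternatives were RLE and total-count scaling, TMM without immunoglobulin and T cell receptor genes, no filter, DESeq2 1.42.0, limma-voom (limma 3.58.1), a replicate block, other denominators and lengths, and leaving out each library.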

Additional observations from a re-analysis of the deposited data

How the results depend on the processing

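All 9 tested members kept their direction in all 13 alternative fits. Members called higher were 8 to 10 in the 7 fits with all libraries, where 6.87% to 12.9% of all genes were called higher. They were 5 to 9 without 1 library, where 0.0634% to 13.1% of all genes were. Without 1 library, the log2 fold change was 2.10 to 2.78 for *Ighm*, 2.84 to 3.87 for *Ighd*, 2.75 to 3.49 for *Igkc*, and 2.81 to 6.28 for *Ighg1*. *Ighg1* passed the threshold without a filter (3.37), with limma-voom (4.83), and with the replicate block (4.14, adjusted p = 0.0457). Genes of the lists called higher were 54, and 0 to 54 without 1 library. They were 32 without AAV5-*Gfp* replicate 1, where 1.35% of all genes were called higher. Genes of the lists called lower were 2, but 1 with total counts, 6 with DESeq2, 5 with the replicate block, and 0 to 6 without 1 library. In the same order, 5.27%, 4.16%, 8.64%, 7.21%, and 0% to 7.63% of all genes were called lower. The *Igha* share with AAV5-*V1+V2* minus AAV5-*Gfp* was 8.35 percentage points but -10.1 among switched isotypes alone. The *Ighg1* share was -9.63 but 0.563 without AAV5-*Gfp* replicate 1, in a range of -15.7 to 0.563 without 1 library. Other shares and ratios kept their direction, also per kilobase and, chosen after seeing the data, per kilobase of the shorter transcript. No share or ratio could reach 0.05, since the smallest exact p is 0.1 for 3 against 3, 0.2 for 2 against 3, and 0.25 for 3 sign flips. Libraries of the same replicate number correlated at 0.036, 0.066, and 0.107 in their deviations from the group means. AAV5-*V1+V2* replicates 2 and 3 correlated best with the control of their own number. AAV5-*V1+V2* replicate 1 correlated slightly better with AAV5-*Gfp* replicate 2, at 0.043 against 0.036. The other unlike pairs lay between -0.104 and -0.01. The labels name no pairs, and the numbers were not taken as pairs. With the block, 11.4% of genes were called higher and 7.21% lower. Depth limits *Ighe* and *Ighg3*, with at most 2 counts in a control library. Beyond the values above, the causes of these changes were not tested.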
